A study of Mus musculus with 6 samples.

Results

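Blood and lymphatic endothelial genes are the 36 genes, of 18159 in the table, whose symbols were chosen as markers of the cells that line vessels. All 36 were found. They fall into 13 surface and junction genes, 8 secreted, capillary and enzyme genes, 6 receptors and ligands, 5 transcription factors and 4 lymphatic genes. Poly(A)-selected RNA labelled as intestinal epithelial cells was sequenced in 3 libraries labelled Git2-knockout and 3 wild-type libraries, all from mice aged 12 days. No other allele, treatment, strain or sex is stated, and the libraries carry the title Git2-knockout but the genotype entry knockdown. By title the material is epithelial cells, whereas the design text calls it enteroids, epithelial organoids grown from crypts. Whether the libraries of a group came from separate animals or cultures is not stated. A p-value here sets the difference between the groups only against the spread of these libraries within a group, which can be technical.

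Endothelial cells form the inner wall of blood and lymphatic vessels and are a cell type separate from the epithelium. Blood endothelium answers VEGF ligands through the receptors Kdr and Flt1, angiopoietins through Tek, and apelin through Aplnr, and its identity rests on ETS family factors such as Erg and on the SoxF factors Sox7, Sox17 and Sox18. Lymphatic endothelium uses Flt4, the receptor for VEGF-C, under the transcription factor Prox1, and in the villus the lymphatic lacteal takes up dietary fat while fenestrated blood capillaries carry Plvap.

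The promoters of 6 members are shown because these genes span the range of change described below and hold core motifs of ETS factors. The windows run from 250 bases before to 50 bases after the start of each gene, 5′ to 3′ on the gene's strand, and come from RefSeq on the GRCm38.p6 assembly. Capitals mark every AGGAAG or AGGAAA, which read CTTCCT or TTTCCT where they lie on the other strand.
Adgrl4: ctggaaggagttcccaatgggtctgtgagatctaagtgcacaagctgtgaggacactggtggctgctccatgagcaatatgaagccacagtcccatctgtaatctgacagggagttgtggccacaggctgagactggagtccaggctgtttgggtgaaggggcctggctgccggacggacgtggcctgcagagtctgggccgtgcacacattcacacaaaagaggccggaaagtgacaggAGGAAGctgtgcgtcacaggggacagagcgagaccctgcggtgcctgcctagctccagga
Clec14a: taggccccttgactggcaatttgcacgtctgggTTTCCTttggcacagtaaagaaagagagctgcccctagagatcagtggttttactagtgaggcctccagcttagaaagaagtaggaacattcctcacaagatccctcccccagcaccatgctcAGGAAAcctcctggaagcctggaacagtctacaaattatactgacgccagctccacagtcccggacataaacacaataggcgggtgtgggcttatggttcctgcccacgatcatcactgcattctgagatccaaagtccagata
Cd34: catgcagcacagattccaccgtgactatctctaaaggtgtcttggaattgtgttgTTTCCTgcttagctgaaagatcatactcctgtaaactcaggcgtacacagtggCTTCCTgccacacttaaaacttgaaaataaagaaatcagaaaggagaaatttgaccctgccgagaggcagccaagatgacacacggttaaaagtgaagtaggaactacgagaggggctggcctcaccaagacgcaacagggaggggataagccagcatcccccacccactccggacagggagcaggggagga
Robo4: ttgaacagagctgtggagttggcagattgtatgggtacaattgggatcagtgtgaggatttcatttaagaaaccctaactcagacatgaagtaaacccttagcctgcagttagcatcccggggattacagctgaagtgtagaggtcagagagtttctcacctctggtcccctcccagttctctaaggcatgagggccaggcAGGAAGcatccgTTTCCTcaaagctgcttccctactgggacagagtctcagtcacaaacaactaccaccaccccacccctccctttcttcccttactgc
Tie1: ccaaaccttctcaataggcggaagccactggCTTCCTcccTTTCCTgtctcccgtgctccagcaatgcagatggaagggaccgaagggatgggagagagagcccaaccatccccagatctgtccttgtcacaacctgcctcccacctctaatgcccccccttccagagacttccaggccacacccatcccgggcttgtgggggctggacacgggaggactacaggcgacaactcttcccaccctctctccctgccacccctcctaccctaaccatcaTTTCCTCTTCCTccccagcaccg
Apln: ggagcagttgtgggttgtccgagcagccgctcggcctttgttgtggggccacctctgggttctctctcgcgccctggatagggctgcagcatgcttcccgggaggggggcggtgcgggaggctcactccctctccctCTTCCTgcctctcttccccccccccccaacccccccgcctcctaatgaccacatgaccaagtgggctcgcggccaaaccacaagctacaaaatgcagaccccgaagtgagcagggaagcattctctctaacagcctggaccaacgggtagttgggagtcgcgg
The windows lie at chr3:151437632-151437931 on the plus strand (Adgrl4), chr12:58269209-58269508 on the minus strand (Clec14a), chr1:194938571-194938870 on the plus strand (Cd34), chr9:37401722-37402021 on the plus strand (Robo4), chr4:118489800-118490099 on the minus strand (Tie1) and chrX:48034804-48035103 on the minus strand (Apln). RefSeq windows were matched by symbol for 21 of the 36 members and gave 27 promoters, since some genes have several starts. At least 1 of the motifs was present in 20 of these 27 promoters (74.1%), against 53.4% of 32851 promoters of all genes. AGGAAG was found in 14 (51.9%), against 35.4% of all promoters, and AGGAAA in 15 (55.6%), against 29.1%. The Tie1 window held 2 of each, and in 1 place the 2 motifs stood directly side by side. A match is a description of letters and not a binding site, and Apln, which did not pass the test below, also held an AGGAAG.

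Nearly all endothelial genes stood at higher levels in the knockout-labelled libraries. Of the 36 genes 30 rose, 0 fell, 2 did not pass the test and 4 were too low to test (edgeR's quasi-likelihood test, Benjamini-Hochberg adjusted p under 0.05). Over all 13558 tested genes 29.6% rose by the same rule and 57% changed in either direction, and of tested genes with a mean level within the range of the members 26.4% rose. Of the 30 rises 27 passed in every alternative that tested them, the exceptions being Prox1, Ecscr and Rasip1. The rise was at least 2-fold in 25 of the 36, against 3.69% of all tested genes and 10.5% of tested genes within the range of levels of the members. Of all tested genes 0.966% fell at least 2-fold. The mean level was higher in the knockout-labelled libraries for all 36, and in 32 of them every knockout-labelled library lay above every wild-type library, as it did for 27.3% of the genes in the table. In a fit without an expression filter, which takes in all 36, the median log2 fold change was 1.24, beside a median of 0.04 for all genes in that fit. In bulk RNA, more cells of a type and more RNA per cell cannot be told apart.

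A filter on low counts kept 32 of the 36, and 7 of these passed it only through the knockout-labelled libraries (Cldn5, Clec14a, Gpihbp1, Nos3, Rhoj, Aplnr and Ccl21a), so for those a difference was built into the selection. Another 6 reached the filter limit in only 1 or 2 wild-type libraries, so they too needed knockout-labelled libraries to pass. Among the 19 members above the filter limit of 0.562 CPM (counts scaled to library size) in all 6 libraries, 17 rose and 13 rose at least 2-fold, where 29.3% and 2.03% of all genes so expressed did. Without the filter 31 of the 36 passed the test, against 22% of genes. When a trend with transcript length was removed 30 members still rose while the share of all genes rising fell to 21.5%. After correction for length and GC together 30 rose, against 16.98% of all genes, and 37.1% of all calls were then upward where 51.95% were without the correction. On log2(TPM + 1), a scale that divides by transcript length, all 32 tested members rose, but there the median of all genes stood at 0.14 and 75.1% of all calls were upward.

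**Figure D1:**
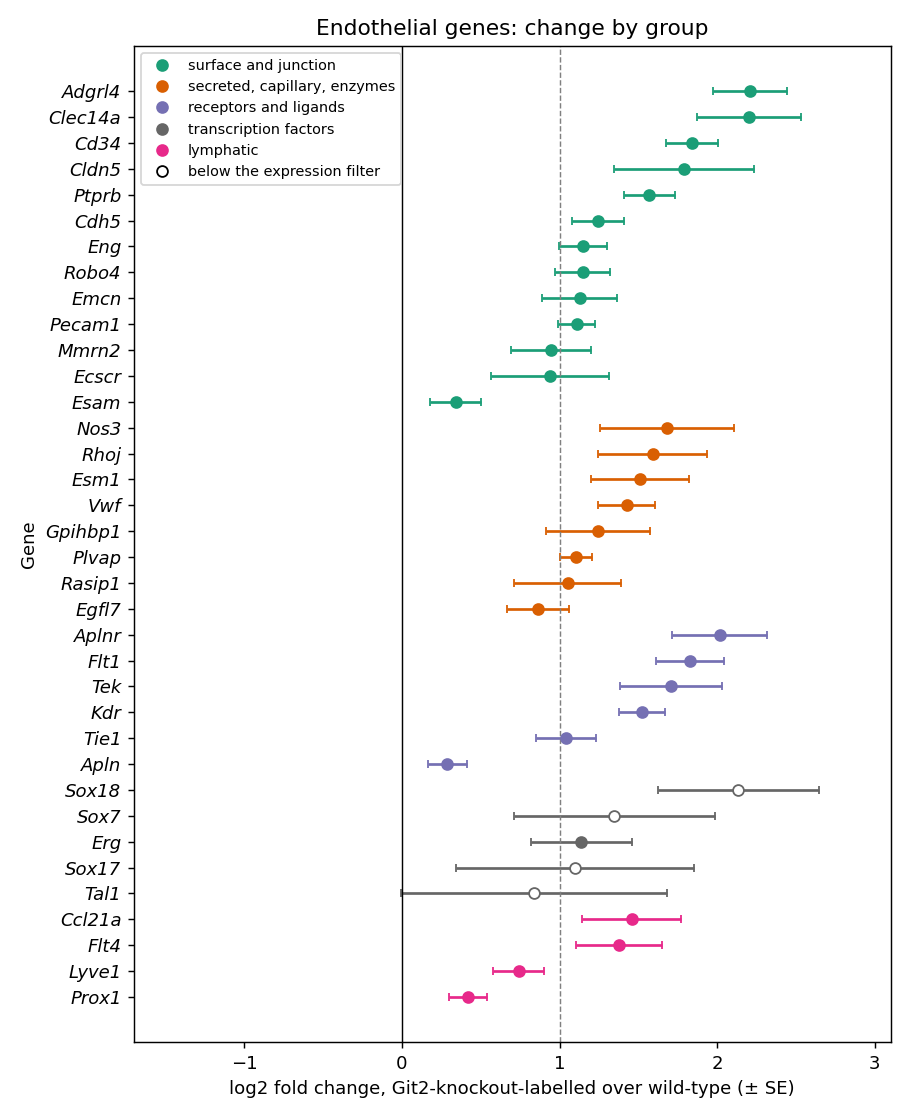
Log2 fold change of each of the 36 endothelial genes, Git2-knockout-labelled over wild-type, with its standard error, grouped by role. Filled points are genes tested with the expression filter and open points come from the fit without it; the dashed line marks 2-fold, and every point lies to the right of 0, from 0.29 for Apln to 2.21 for Adgrl4.

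The genes made up a small part of each library. Libraries held 16284414 to 16837158 estimated reads in the knockout-labelled group and 18753649 to 19106581 in wild-type. The 36 genes together took 0.0116%, 0.0130% and 0.0120% of the reads of the knockout-labelled libraries, against 0.00543%, 0.00552% and 0.00550% of the reads of the wild-type libraries. No member was at 0 in any library, and the lowest, Tal1 and Sox17, had as little as 1 estimated read. Epithelial genes were far more abundant per transcript length: Epcam, the epithelial adhesion molecule, averaged 2821 TPM in knockout-labelled and 2510.3 TPM in wild-type libraries, where the 36 genes together averaged 91.8 TPM in knockout-labelled and 38.8 TPM in wild-type libraries. Git2 itself was at 17.4, 15.5 and 16.8 CPM in the libraries labelled knockout and at 22.2, 23.7 and 22.7 CPM in wild-type, a fall of 0.47 on the log2 scale (edgeR, Benjamini-Hochberg adjusted p = 4.44e-05). That is 0.723 of the wild-type level, so the transcript does not by itself check the label.

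Surface and junction genes of the endothelium rose in 12 of 13 cases, with 10 rises of at least 2-fold. Pecam1, an adhesion molecule at contacts between endothelial cells, was at 10.4, 12.8 and 11.2 CPM in the knockout-labelled libraries, against 5.65, 5.71 and 4.58 CPM in wild-type. The groups did not overlap, and edgeR gave a log2 fold change of 1.11 (SE 0.12, Benjamini-Hochberg adjusted p = 8.06e-07). Cdh5, the cadherin of endothelial adherens junctions, was at 5.04, 5.04 and 4.65 CPM in knockout-labelled libraries, against 1.61, 2.46 and 2.13 CPM in wild-type, a log2 fold change of 1.24 (SE 0.16, adjusted p = 8.45e-06). Endoglin (Eng), a co-receptor for TGF-beta family ligands, averaged 6.21 ± 0.572 CPM in knockout-labelled and 2.80 ± 0.535 CPM in wild-type libraries (SD, n = 3 each). Endomucin (Emcn), a sialomucin of capillaries and veins, averaged 1.80 ± 0.0854 CPM in knockout-labelled and 0.820 ± 0.139 CPM in wild-type libraries (SD, n = 3 each). Their log2 fold changes of 1.15 and 1.13 lay close to that of Pecam1, as did the 1.15 of Robo4, a guidance receptor that stabilises vessels.

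The largest changes of the whole set were in this group. Adgrl4, an adhesion G protein-coupled receptor of endothelium, was at 2.49, 2.70 and 3.30 CPM in the knockout-labelled libraries, against 0.646, 0.587 and 0.585 CPM in wild-type. Clec14a, a C-type lectin family protein that binds the matrix protein Mmrn2, had 35, 27 and 22 estimated reads in the knockout-labelled libraries, against 9, 6 and 5 in the larger wild-type libraries. Both stood apart between groups, with log2 fold changes of 2.21 (SE 0.23) and 2.20 (SE 0.33) by edgeR (Benjamini-Hochberg adjusted p = 9.09e-07 and 3.17e-05). Cd34, a sialomucin that blood progenitors and some fibroblasts also carry, was at 5.10, 6.03 and 5.77 CPM in knockout-labelled and 1.34, 1.87 and 1.49 CPM in wild-type libraries (log2 fold change 1.84, SE 0.16). Ptprb, the phosphatase that acts on Tek and Cdh5, changed by 1.57, and Cldn5, the claudin of endothelial tight junctions, by 1.79 on 10 to 11 estimated reads in the knockout-labelled libraries and 2 to 4 in wild-type.

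Smaller differences were seen in Mmrn2, Ecscr and Esam. Mmrn2 rose by 0.95 (SE 0.25, edgeR, Benjamini-Hochberg adjusted p = 0.00473), less than its partner Clec14a, though the difference between them was not tested. Ecscr, an endothelial surface regulator of migration, was at 1.21, 0.527 and 1.06 CPM in knockout-labelled libraries, against 0.377, 0.427 and 0.639 CPM in wild-type. Its groups overlapped, and its call (adjusted p = 0.0411) was lost in 7 of 18 alternatives, among them DESeq2 (adjusted p = 0.131) and the fits without replicate 1 (0.170) or 3 (0.135) of the knockout-labelled libraries and without replicate 1 (0.132) or 2 (0.112) of wild-type. Esam, an adhesion molecule of endothelial tight junctions and of platelets, was at 3.58, 3.69 and 2.83 CPM in knockout-labelled libraries, against 2.90, 2.51 and 2.55 CPM in wild-type. These values overlapped and the difference of 0.34 did not pass the test (SE 0.16, edgeR, Benjamini-Hochberg adjusted p = 0.0869). It passed in 5 of 18 alternatives: with the length trend removed (0.41, adjusted p = 0.0405), with that trend removed beside a replicate block (0.41, adjusted p = 0.0498), after correction for length and GC (0.52, adjusted p = 0.0130), on log2(TPM + 1) (0.39, adjusted p = 0.0111) and without knockout-labelled replicate 3 (0.44, adjusted p = 0.0466).

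Secreted, capillary and enzyme genes rose in 8 of 8 cases, 7 of them at least 2-fold. Plvap, which forms the diaphragms of fenestrated capillaries, was the most abundant member per transcript length. Its TPM (a level scaled by transcript length and library size) was 15.8, 14.7 and 14.7 in the knockout-labelled libraries, against 6.37, 5.72 and 6.67 in wild-type. It rose by 1.10 on the log2 scale of the count fit (SE 0.10, edgeR, Benjamini-Hochberg adjusted p = 1.71e-07), close to Pecam1. Vwf, von Willebrand factor of endothelial granules and platelets, was at 3.76, 4.92 and 4.83 CPM in knockout-labelled libraries, against 1.45, 1.495 and 2.08 CPM in wild-type. The groups did not overlap and the log2 fold change was 1.42 (SE 0.18).

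The other secreted and capillary genes had fewer reads. Esm1, a proteoglycan of sprouting tip cells, had 22 to 30 estimated reads in knockout-labelled libraries and 5.99 to 14 in wild-type (log2 fold change 1.51). Gpihbp1, which anchors lipoprotein lipase on capillary walls, had 15 to 25 reads in knockout-labelled and 8 to 10 in wild-type libraries (1.25). Rhoj, a small GTPase of endothelium, had 16 to 22 reads in knockout-labelled and 4 to 8 in wild-type libraries (1.59). Nos3, endothelial nitric oxide synthase, was uneven within the knockout-labelled group, at 0.607, 1.41 and 0.765 CPM, against 0.215, 0.374 and 0.266 CPM in wild-type (log2 fold change 1.68, SE 0.43). Egfl7, a secreted endothelial protein, changed least of this group, at 2.25, 3.05 and 2.88 CPM in knockout-labelled and 1.45, 1.60 and 1.44 CPM in wild-type libraries (0.86, SE 0.19). Rasip1, a Rap1 effector needed for lumen formation, rose by 1.05 (SE 0.34, edgeR, Benjamini-Hochberg adjusted p = 0.0147), and the call was lost with DESeq2 (adjusted p = 0.0547), without knockout-labelled replicate 2 (0.0660) and without wild-type replicate 1 (0.0768).

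**Figure D2:**
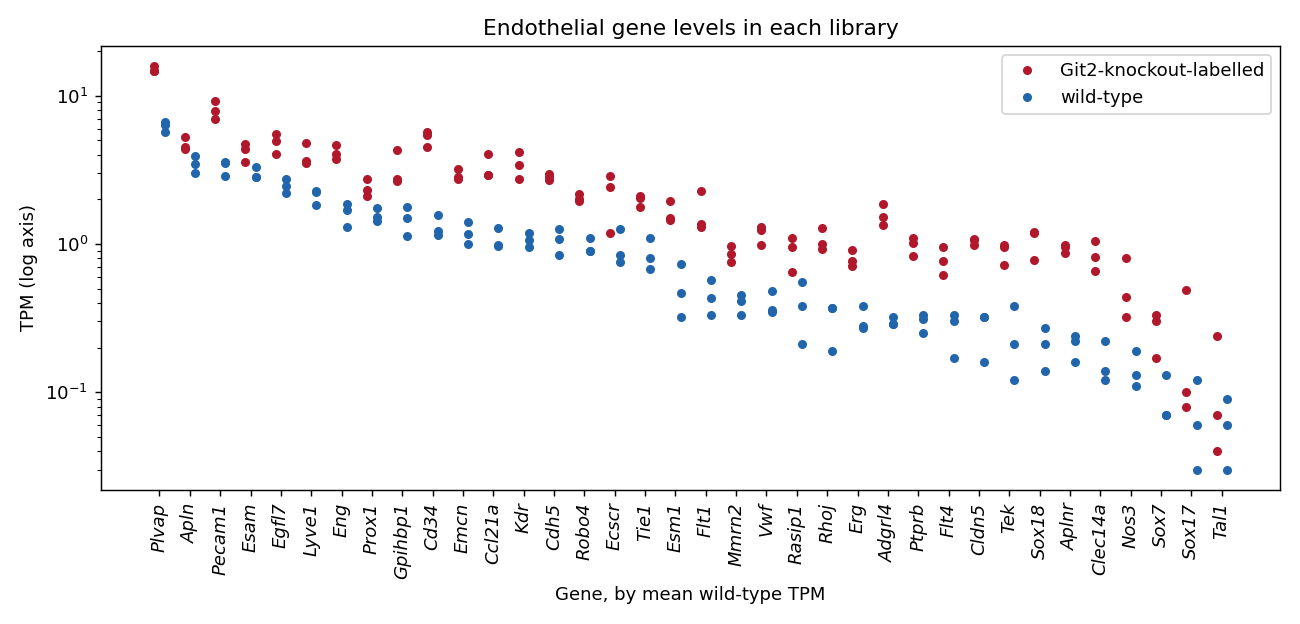
TPM of each endothelial gene in each of the 6 libraries on a log axis, genes ordered by mean wild-type TPM, with Git2-knockout-labelled libraries to the left of wild-type libraries at each gene. Plvap is the most abundant, at 14.7 to 15.8 TPM in knockout-labelled and 5.72 to 6.67 TPM in wild-type libraries, and Tal1 the least abundant.

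The 5 receptors among the blood vessel members each rose at least 2-fold. Kdr, the main signalling receptor for VEGF-A, was at 7.34, 10.5 and 8.71 CPM in the knockout-labelled libraries, against 3.07, 3.42 and 2.77 CPM in wild-type. Flt1, which binds VEGF-A tightly and can act as a decoy, was at 3.95, 5.92 and 3.83 CPM in knockout-labelled libraries, against 1.08, 1.495 and 1.28 CPM in wild-type. Replicate 2 was the highest knockout-labelled library for both, and the groups did not overlap. Their log2 fold changes were 1.52 (SE 0.15) and 1.83 (SE 0.21) by edgeR (Benjamini-Hochberg adjusted p = 3.43e-07 and 2.62e-06). Kdr, Flt1 and Nos3 lie on chromosome 5, as Git2 does, and the part of that position in their values was not tested.

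Both members of the angiopoietin receptor pair rose. Tek was at 2.003, 1.87 and 1.41 CPM in knockout-labelled libraries, against 0.861, 0.267 and 0.479 CPM in wild-type (log2 fold change 1.71, SE 0.33). Tie1, its orphan partner, was at 3.095, 3.52 and 3.41 CPM in knockout-labelled libraries, against 1.51, 1.28 and 2.08 CPM in wild-type (1.04, SE 0.19). Per transcript length Tek stood at 0.551, 0.453 and 0.355 of Tie1 in knockout-labelled libraries and at 0.475, 0.176 and 0.193 of Tie1 in wild-type, so the ratios overlapped between groups.

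The apelin receptor rose, and apelin itself did not pass the test. Aplnr, the receptor, had 23, 25 and 26 estimated reads in knockout-labelled libraries, against 5, 7 and 8 in wild-type, which edgeR put at 2.02 on the log2 scale (SE 0.30, Benjamini-Hochberg adjusted p = 3.20e-05). Apln, the ligand, was at 6.19, 6.09 and 7.18 CPM in knockout-labelled libraries, against 5.92, 5.34 and 4.68 CPM in wild-type. The knockout-labelled libraries lay just above the others, but the difference of 0.29 did not pass the test (SE 0.12, adjusted p = 0.0581). It passed on library totals (0.32, adjusted p = 0.0363), on log2(TPM + 1) (0.36, adjusted p = 0.0142) and without wild-type replicate 1 (0.37, adjusted p = 0.0384). The TPM ratio of Aplnr to Apln was 0.198, 0.212 and 0.188 in knockout-labelled libraries, against 0.0410, 0.0632 and 0.0792 in wild-type, with no overlap between the groups.

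Of the 5 endothelial transcription factors only Erg had enough reads to be tested with the filter. Erg, the ETS factor that maintains endothelial identity, had 15, 16 and 21 estimated reads in knockout-labelled libraries, against 7, 8 and 11 in wild-type, and rose by 1.14 (SE 0.32, edgeR, Benjamini-Hochberg adjusted p = 0.00667). Sox18, a SoxF factor of blood and lymphatic vessel growth, had 14, 9 and 14 reads in knockout-labelled libraries, against 3, 2 and 4 in wild-type. In the fit without a filter it rose by 2.13 (SE 0.51, adjusted p = 8.17e-04). Its relatives Sox7 (1.35, SE 0.64, adjusted p = 0.0890) and Sox17 (1.10, SE 0.75, adjusted p = 0.262) did not pass in that fit. Nor did Tal1, a factor shared by blood and endothelial precursors (0.84, SE 0.84, adjusted p = 0.464), and none of these 3 had more than 9 reads in any library, so differences of this size were not detectable at this depth.

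The 4 lymphatic genes all rose, though the rise of Prox1 was lost in some alternatives given below. Flt4 was at 1.64, 1.93 and 2.41 CPM in the knockout-labelled libraries, against 0.861, 0.481 and 0.958 CPM in wild-type, which edgeR put at 1.37 on the log2 scale (SE 0.27, Benjamini-Hochberg adjusted p = 4.42e-04). Ccl21a, the lymphatic chemokine that draws dendritic cells and T cells, had 17.8, 24.3 and 17.8 estimated reads in knockout-labelled libraries, against 7.39, 9.76 and 7.43 in wild-type (1.46, SE 0.31). Near-identical copies of this gene exist and may share its reads, so its level is uncertain. Lyve1, a hyaluronan receptor of lymphatic endothelium and of some macrophages, was at 4.19, 5.27 and 3.94 CPM in knockout-labelled libraries, against 2.85, 2.30 and 2.87 CPM in wild-type (0.74, SE 0.16).

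Prox1 changed least of the lymphatic genes. It was at 8.25, 9.37 and 7.12 CPM in the knockout-labelled libraries, against 5.97, 6.84 and 5.69 CPM in wild-type, which edgeR put at 0.42 on the log2 scale (SE 0.12, Benjamini-Hochberg adjusted p = 0.00777). The groups did not overlap, by a narrow gap. It no longer passed once the length trend was taken out (0.06, adjusted p = 0.698), after correction for length and GC (0.12, adjusted p = 0.448) and without knockout-labelled replicate 2 (0.31, adjusted p = 0.0588). Prox1 is also made by enteroendocrine cells. Of 7 genes of that cell type 3 rose and 1 fell, where 29.6% of all tested genes rose and 27.4% fell. The lowest p was that of the transcription factor Neurod1 (0.96), and the granule protein Chgb stood at 0.05. The 7 genes summed to 394 to 402 CPM in knockout-labelled and 393 to 400 CPM in wild-type libraries. Chgb averaged 228 CPM in knockout-labelled and 221 CPM in wild-type libraries. Chga, named after its values were seen, averaged 144 CPM in knockout-labelled and 160 CPM in wild-type libraries. Chgb and Chga made up most of the sum, so it says little of the less abundant genes. The part of enteroendocrine cells in the Prox1 value was not tested.

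Lymphatic and blood vessel genes moved in the same direction. The median log2 fold change was 1.05 over the 4 lymphatic genes and 1.24 over the other 32 in the fit without a filter, and 1.36 over the lymphatic genes without Prox1, all beside 0.04 for all genes. Summed over the list, the lymphatic genes stood at 9.44, 12.3 and 9.47 TPM in knockout-labelled libraries, against 5.09, 5.03 and 4.97 TPM in wild-type. The other 32 summed to 77, 85.1 and 82 TPM in knockout-labelled libraries, against 33.3, 33.8 and 34.2 TPM in wild-type. Lymphatic genes made up 10.9%, 12.6% and 10.3% of the summed TPM in knockout-labelled libraries and 13.3%, 13.0% and 12.7% in wild-type, lower in every knockout-labelled library than in any wild-type library. Leaving Prox1 out of the numerator, the share was 8.24%, 9.80% and 8.06% in knockout-labelled and 9.30%, 8.45% and 9.03% in wild-type libraries, and the groups overlapped.

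**Figure D3:**
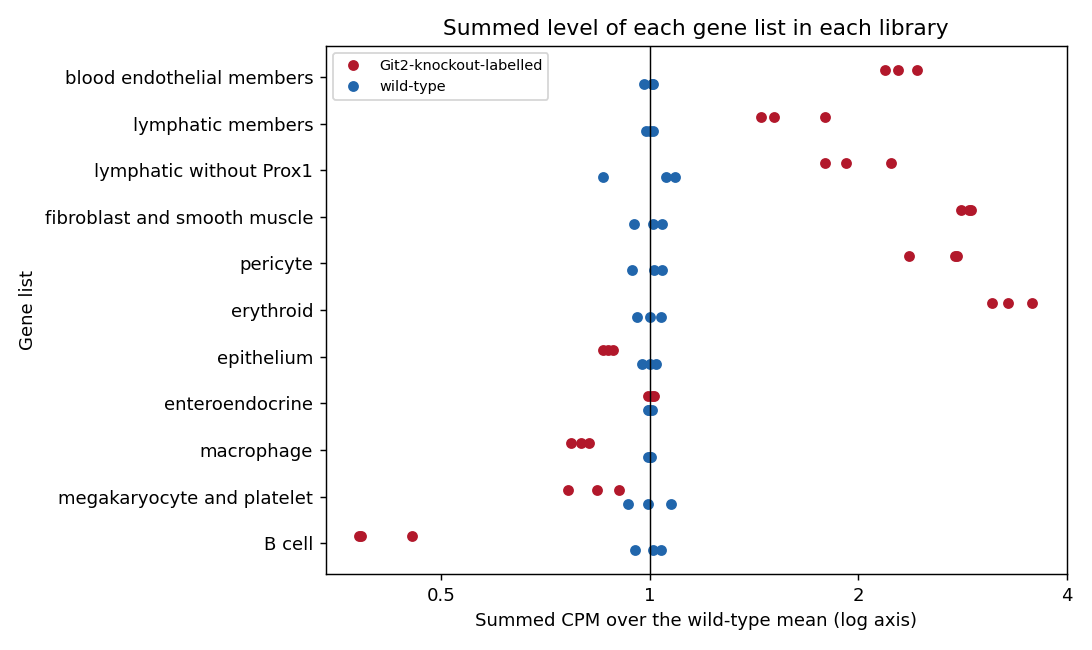
Summed CPM of each gene list in each library divided by the mean of the 3 wild-type libraries, on a log axis, with Git2-knockout-labelled libraries drawn above wild-type libraries. The endothelial, fibroblast, pericyte and erythroid sums of the knockout-labelled libraries lie to the right of 1 and the B cell sums to the left, while enteroendocrine sums stay near 1.

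The composition within the endothelial set was partly kept. Relative to the summed TPM of the other 35 genes, 23 members overlapped between the groups, 9 were higher in every knockout-labelled library and 4 were lower. For comparison, 1.43% of the genes in the table were higher and 72.5% lower on this ratio. The summed TPM of the members was itself higher in knockout-labelled libraries, at 91.8 TPM on average against 38.8 TPM in wild-type. A gene of unchanged TPM is therefore lower on this ratio, so these shares follow largely from the denominator. Pecam1 was 9.54% of the others in knockout-labelled and 9.41% in wild-type libraries, and Plvap was 19.8% in knockout-labelled and 19.2% in wild-type libraries, and for both markers the groups overlapped. The 9 higher members were Adgrl4, Clec14a, Sox18, Aplnr, Cd34, Cldn5, Rhoj, Ptprb and Kdr, and the 4 lower were Apln, Esam, Prox1 and Egfl7. Kdr stood at 0.394, 0.454 and 0.433 of Pecam1 by TPM in knockout-labelled libraries, against 0.299, 0.334 and 0.330 in wild-type.

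**Figure D4:**
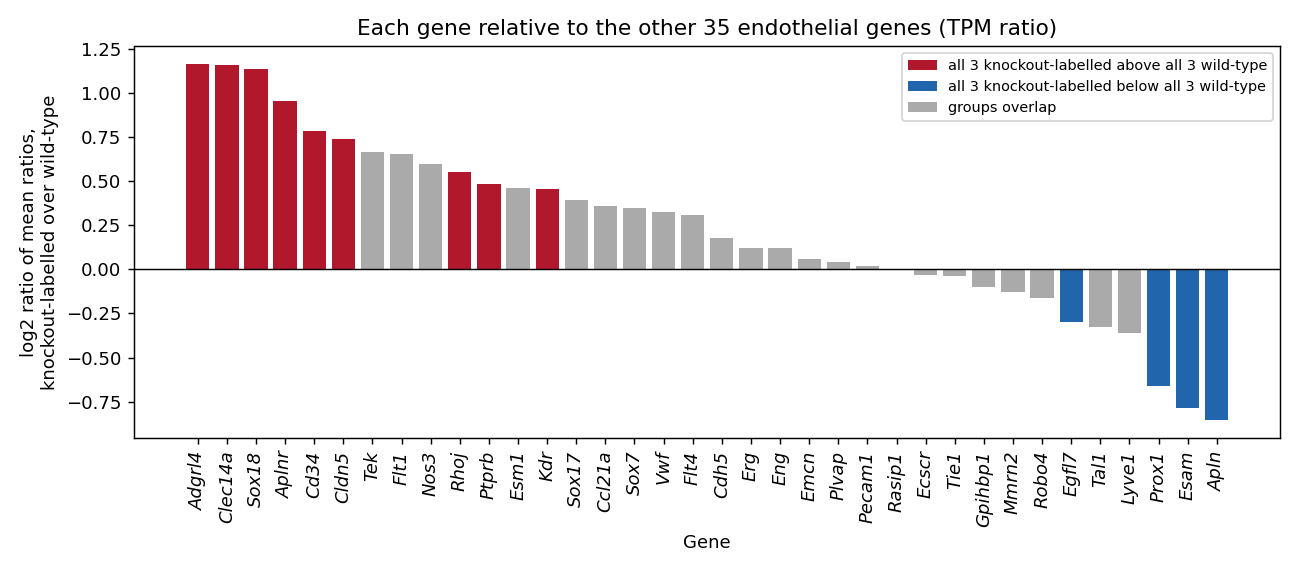
Log2 ratio, Git2-knockout-labelled over wild-type, of each gene's TPM relative to the summed TPM of the other 35 endothelial genes, as a ratio of group means. Red bars mark the 9 genes higher in every knockout-labelled library and blue bars the 4 lower ones; grey bars are the 23 genes whose groups overlap.

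Of 68 other vessel signalling genes 32 rose, 2 fell, 19 did not pass the test and 15 were too low to test, where 29.6% of all tested genes rose and 27.4% fell. Receptors and membrane partners rose in 12 of 22 cases, ligands in 3 of 13 (a share near that of all genes), transcription factors in 8 of 15 and other vessel genes in 9 of 18. Cav1, the coat protein of caveolae, was at 9.76 and 3.01 CPM on average in knockout-labelled and wild-type libraries (log2 fold change 1.69, SE 0.12, edgeR, Benjamini-Hochberg adjusted p = 8.56e-09). Cd93, a lectin-like receptor that also binds Mmrn2, rose by 1.97 (SE 0.16), the scavenger receptor Stab2 by 0.85 (SE 0.08) and the BMP receptor Bmpr2 by 0.91 (SE 0.05), which was 0.18 after correction for length and GC together.

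Among the ligands 3 rose and 1 fell. Vegfa, the main ligand of Kdr and Flt1, fell by 0.33 on the log2 scale, to 122 CPM in knockout-labelled libraries, against 154 CPM in wild-type (SE 0.04, edgeR, Benjamini-Hochberg adjusted p = 6.79e-06). Vegfc, the ligand of Flt4, was at 7.29 and 6.67 CPM on average in knockout-labelled and wild-type libraries (0.13, adjusted p = 0.368), and the angiopoietin Angpt2 at 4.51 and 4.44 CPM (0.02, adjusted p = 0.912). Endothelin 1 (Edn1) rose by 0.71 (SE 0.05) and the semaphorin Sema3c by 0.77 (SE 0.08), which was 0.33 after correction for length and GC together. Ephb4, a receptor that among vessels marks veins, fell by 0.31 (SE 0.05), at 70.3 CPM in knockout-labelled and 86.9 CPM in wild-type libraries on average. Per transcript length it averaged 37.1 TPM in knockout-labelled and 41.0 TPM in wild-type libraries. Plvap, the most abundant member, averaged 15.1 TPM in knockout-labelled and 6.25 TPM in wild-type libraries. The part of vessels in the Ephb4 value was not tested.

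Genes of fibroblasts, pericytes and red cells were higher along with the endothelial genes. Beside the counts below, 29.6% of all tested genes rose. Of 13 fibroblast and smooth muscle genes 10 rose and 0 fell, with summed levels of 134 to 139 CPM in knockout-labelled and 45.1 to 49.6 CPM in wild-type libraries, with the lowest p for the matrix protein Sparc (1.63). Among the 7 pericyte genes measured, 4 rose and 0 fell, summing to 19.4 to 22.7 CPM in knockout-labelled and 7.69 to 8.52 CPM in wild-type libraries, with the lowest p for Rgs5 (2.16), and Pdgfrb at 0.92. The erythroid list rose in 4 of 8 cases and summed to 74.1 to 84.4 CPM in knockout-labelled and 22.8 to 24.6 CPM in wild-type libraries, with the lowest p for the globin Hbb-bs (1.90), and reads of the alpha globins Hba-a1 and Hba-a2 can be shared. Epithelial genes fell in 8 of 10 cases, where 27.4% of all tested genes fell, with Krt19 at -0.65, although Vil1, Krt18 and Cldn7 changed sign in some alternatives, and summed to 10270 to 10610 CPM in knockout-labelled and 11707 to 12264 CPM in wild-type libraries. The part of these cells in the endothelial values was not tested.

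Genes of platelets, macrophages and B cells gave other patterns. Of all tested genes 29.6% rose and 27.4% fell. Of the 6 megakaryocyte and platelet genes measured, 0 rose and 1 fell, the platelet receptor subunit Gp1bb (-0.52). The list summed to 11.8 to 13.9 CPM in knockout-labelled and 14.4 to 16.6 CPM in wild-type libraries. Without Gp1bb, likewise added after seeing the data, the other 5 genes summed to 5.40 to 5.89 CPM in knockout-labelled and 4.41 to 5.55 CPM in wild-type libraries, and the groups overlapped. Of the platelet genes too low to test, Ppbp and Pf4 are named after their values were seen. Ppbp had no read in any knockout-labelled library and, in wild-type, 2 reads in replicate 1 and none in the others. Pf4 had 8, 12 and 5 estimated reads in knockout-labelled libraries, against 3, 6 and 3 in wild-type. In the fit without a filter Pf4 stood at 1.17 and did not pass (edgeR, Benjamini-Hochberg adjusted p = 0.0839). Of 10 macrophage genes 3 rose, a share near that of all tested genes. They were the complement genes C1qa (0.46) and C1qb (0.64) and the Fc receptor Fcgr1 (1.24), named after their values were seen. Fcgr1 passed the expression filter only through the knockout-labelled libraries, so for it a difference was built into the selection. In the fit without a filter Fcgr1 rose by 1.23 (edgeR, Benjamini-Hochberg adjusted p = 0.0146). The receptor Csf1r fell (-1.12), at 90.7 CPM in knockout-labelled and 196.6 CPM in wild-type libraries. Mertk, at 225 CPM in knockout-labelled and 218 CPM in wild-type libraries, did not pass the test (0.05, edgeR, Benjamini-Hochberg adjusted p = 0.376). The macrophage list summed to 346 to 367 CPM in knockout-labelled and 447 to 452 CPM in wild-type libraries. Without Csf1r, a sum added after seeing the data, the other 9 genes came to 257 to 276 CPM in knockout-labelled and 249 to 257 CPM in wild-type libraries, and the groups overlapped. Mertk made up most of this sum and its own groups overlapped, so the sum says little of the less abundant genes. The part of macrophages in the Lyve1 value was not tested. All 5 B cell genes fell, with the lowest p for Cd79a (-1.59), with sums of 6.06 to 7.22 CPM in knockout-labelled and 15.2 to 16.5 CPM in wild-type libraries. Of 5 tuft cell genes only Pou2f3 and Avil had enough reads to be tested. Pou2f3 fell (-1.38, a call lost in 4 alternatives) and Avil stood at 0.36 with no call. In the fit without a filter Alox5ap rose (1.48, edgeR, Benjamini-Hochberg adjusted p = 0.0149) and Trpm5 fell (-2.02, adjusted p = 0.0146), both named after their values were seen.

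**Figure D5:**
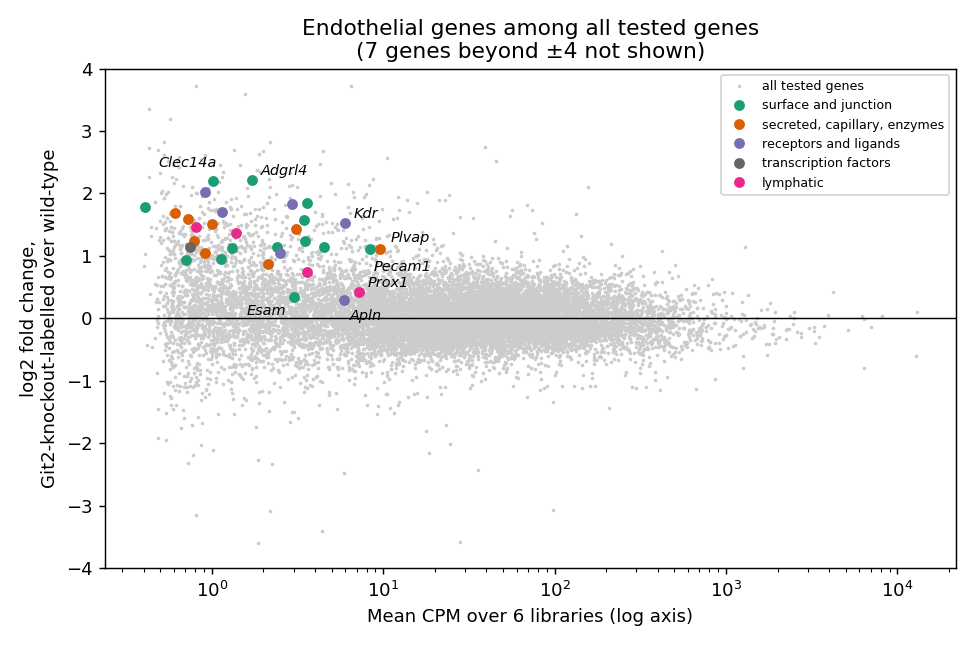
Log2 fold change, Git2-knockout-labelled over wild-type, against mean CPM over the 6 libraries on a log axis for all 13558 tested genes (grey) and the 32 tested endothelial genes (coloured by role). The endothelial genes lie above 0 at mean levels under 10 CPM; genes beyond ±4 are not drawn.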

How the data were processed

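Oligo-dT-selected mRNA was sequenced, per the labels' protocols. The deposited tables hold estimated counts per gene, which were rounded to whole numbers here, and the authors' deposited TPM and FPKM values. HISAT, Bowtie2, RSEM and GRCm39 are named per the submitters' processing notes. For their roles, the annotation and strand: not given in the sources used here. Genes were tested with edgeR 4.0.16 in R 4.3.3 (filterByExpr, TMM scaling, robust quasi-likelihood test, Benjamini-Hochberg adjustment over 13558 genes, threshold 0.05). The fit was tested on simulated data. CPM are counts scaled to TMM-adjusted library sizes, and levels of different genes were compared in TPM, except in choosing the gene of highest mean CPM in each cell type list. Summed estimated counts divided by summed FPKM gave transcript lengths for the length trend. Alternatives were other scalings, DESeq2 1.42.0, limma 3.58.1, filters, trend corrections, a replicate block and leaving out each library. The members and lists were chosen with earlier results of these data known. Genes named were all 36 members, Git2, Vegfa, Vegfc, Angpt2, the 6 called rises and up to 4 called falls of lowest p in the signalling list, and in each cell type list the called gene of lowest p and the gene of highest mean CPM; exceptions are marked as named after their values were seen. The result of 1 cell type list is not reported here.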

Additional observations from a re-analysis of the deposited data

How the results depend on the processing

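No member's direction reversed in the alternatives run, and 27 of the 30 rises passed in every alternative that tested them; Prox1, Ecscr and Rasip1 did not. With at least 5 CPM in 3 libraries, which leaves 7 members, 6 rose and 5 rose at least 2-fold (median 1.12). In that fit 18 signalling and 27 cell type list genes were called. The blood minus lymphatic difference of medians was 0.71, against 0.19, but Prox1 was then the only lymphatic member left. On log2(TPM + 1), where the added 1 makes folds of genes at low TPM smaller, 5 members rose at least 2-fold (median 0.68). The lymphatic sum ratio, knockout-labelled over wild-type, was 2.07 in plain TPM, against 1.58 in CPM. With length and GC trends removed 2302 genes rose. DESeq2 called 28 members and limma-voom 29. Leaving out 1 library gave 29 to 31 rises, 24 to 27 of at least 2-fold, medians of 1.19 to 1.37 (1.37 without wild-type replicate 3), 6580 to 8343 genes called with 3430 to 4082 higher, 27 to 33 signalling and 39 to 44 cell type list genes, and a blood minus lymphatic difference of 0.18 to 0.46 (0.46 without wild-type replicate 2, 0.33 without replicate 3). The cause of these shifts was not tested. Same-numbered libraries shared only a number (correlations of deviations 0.0409, -0.00113 and 0.0498, and not every library correlated best with its own number). A replicate block gave 30 members, 25 of them at least 2-fold, 7441 genes and Git2 at -0.47, and -0.69 with the length trend removed. Members with under 10 reads per library are limited by depth.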
